A study of Caenorhabditis elegans with 4 samples.

Results

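The Y-box RNA-binding proteins of Caenorhabditis elegans are encoded by cey-1, cey-2, cey-3 and cey-4, and the 4 genes were taken by their WormBase symbols from 46934 gene rows of an mRNA-seq data set. A Y-box protein carries a cold-shock domain, a small fold that binds single-stranded nucleic acid, and packages mRNAs into ribonucleoprotein particles (mRNPs). In many animals these proteins are among the most abundant partners of stored maternal mRNAs. In C. elegans all 4 act in the germ line, where they are needed for fertility. CEY-2 and CEY-3 are known as germline proteins, whereas CEY-1 and CEY-4 are also present in somatic tissues. CGH-1, a DEAD-box RNA helicase, and CAR-1, an Lsm-domain protein, share germline storage mRNPs with CEY proteins.

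RNA of whole adult animals was sequenced in 2 control and 2 ATTF-6 depletion libraries. The control animals carried wrdSi51, a transgene on chromosome II in which the mex-5 promoter drives TIR1 in the germ line. The ATTF-6 depletion animals carried the same transgene and a GFP::tev::aid tag on attf-6, the gene of an AT-hook transcription factor, so that TIR1 marks the tagged protein for degradation in the presence of auxin. Both groups were kept at 20 °C and moved to 4 mM auxin at the L4 stage, so auxin and TIR1 were common to all 4 libraries. Because the tag was present only in the depletion strain, an effect of the tag cannot be told apart from the depletion. The germ line of the depleted animals was described by the study as atrophied, and in RNA of whole animals fewer germ cells and less RNA per germ cell cannot be told apart.

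Libraries held between 23923423 and 32096525 counts on genes. The replicates of the control differed with a chi-square per gene of 3.62 and those of the depletion with 44.9, so no library was a copy of another. In CPM, counts scaled to the size of each library and given per 1000000, attf-6 itself stood at 163 and 173 in control libraries, against 101 and 126 where the protein was depleted. This was a log2 fold change of -0.57 (SE 0.13, adjusted p = 0.0042, edgeR's quasi-likelihood test). The adjusted p was 0.056 without control replicate 2, and the change was -0.077 with upper-quartile scaling. Auxin acts on the protein, so the mRNA does not measure the depletion. Over all genes tested, 10452 of 16591 passed an adjusted p of 0.05, which is 63.0%, and 32.1% of the genes tested were called lower and 30.9% higher. Of the calls, 49.0% were higher, against 38.7% with DESeq2, 68.4% with upper-quartile scaling and 16.1% after scaling to somatic marker genes.

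The 4 genes have the same simple structure in the Ensembl annotation of WBcel235, with 1 annotated transcript and 3 exons each. The germline members lie close together on chromosome I, with cey-3 (WBGene00000474) at 5571796 to 5572949 on the minus strand and cey-2 (WBGene00000473) at 5619569 to 5620669 on the plus strand, 46.6 kb apart. The gene cey-1 (WBGene00000472) lies on chromosome II at 11039348 to 11041206 on the minus strand, and cey-4 (WBGene00000475) on chromosome III at 10866946 to 10868703 on the minus strand. The encoded proteins have 208 (CEY-1), 267 (CEY-2), 265 (CEY-3) and 294 (CEY-4) amino acids. Exons cover 1381 nt in cey-1, 1011 nt in cey-2, 990 nt in cey-3 and 1183 nt in cey-4. Each of cey-1 and cey-4 overlaps 1 gene on the opposite strand, srlf-15 and oxi-1, and the reads were counted by strand. No member had a fractional count in any library, so in these tables none of the reads counted on them had been divided between several alignments.

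The germline members fell upon ATTF-6 depletion, and the broadly expressed members did not pass the test. The control libraries held 37083 and 34400 counts of cey-2 and the depletion libraries 3097 and 3765. Normalized, the control stood at 1138 and 1139 CPM and the depletion at 137 and 135 CPM, or 1139 ± 0.237 against 136 ± 0.939 CPM (SD, n = 2 each). Both depletion libraries lay far below both control libraries. The log2 fold change of cey-2 was -3.07 (SE 0.12, adjusted p = 1.4e-06), an 8.38-fold lower level. The SD of the control pair was smaller than the counting error of a single library, which was 5.91 CPM in control replicate 1 and 6.14 CPM in control replicate 2, so the SD understates the error there.

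For cey-3, the closest neighbour of cey-2 in the family by position, the control libraries held 14764 and 13709 counts and the depletion libraries 1923 and 2007. Normalized, the control stood at 453 and 454 CPM and the depletion at 84.8 and 72.1 CPM. The groups did not overlap, and the depletion replicates differed from each other by more than their counting errors of 1.93 and 1.61 CPM. The log2 fold change of cey-3 was -2.53 (SE 0.13, adjusted p = 2.4e-06), a 5.78-fold lower level. Of all genes tested, 2.68% had a lower log2 fold change than cey-2 and 3.55% a lower one than cey-3.

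For cey-1, which is expressed in somatic tissues as well as in the germ line, the control libraries held 10894 and 9936 counts and the depletion libraries 7204 and 8179. In CPM these were 334 and 329 for the control against 318 and 294 for the depletion. The log2 fold change of cey-1 was -0.12 (SE 0.11, adjusted p = 0.38). For cey-4, the other broadly expressed member, control counts of 13836 and 12702 stood against depletion counts of 9080 and 10168. In CPM these were 425 and 420 CPM against 400 and 365 CPM. The log2 fold change of cey-4 was -0.14 (SE 0.11, adjusted p = 0.30). In each of the 4 genes both control libraries lay above both depletion libraries, as they did in 38.1% of all genes tested, and in cey-1 and cey-4 the gap was no larger than the distance between the depletion replicates. DESeq2 called cey-4 lower (log2 fold change -0.28, adjusted p = 0.047) and did not call cey-1. Without either depletion replicate both genes were called lower, with log2 fold changes between -0.22 and -0.11, where the spread came from the control pair alone.

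**Figure D1:**
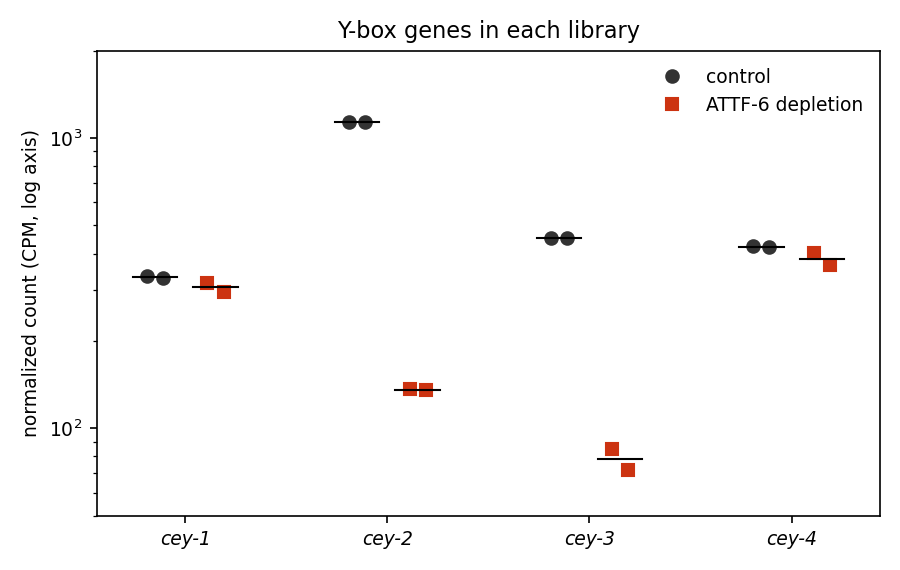
Normalized count of each Y-box gene in CPM on a log axis, with a point for each library (circles, control; squares, ATTF-6 depletion) and a line at the mean of the 2 libraries. For cey-2 (1138 and 1139 against 137 and 135 CPM) and cey-3 (453 and 454 against 84.8 and 72.1 CPM) the groups are widely apart, and for cey-1 and cey-4 they lie close together.

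To compare the genes with each other, CPM were divided by the exon length in kb. In the control the order of the levels was cey-2, cey-3, cey-4 and cey-1, at 1126 ± 0.235, 458 ± 0.407, 357 ± 2.56 and 240 ± 2.83 CPM per kb (SD, n = 2). Upon ATTF-6 depletion the order was cey-4, cey-1, cey-2 and cey-3, at 324 ± 21.0, 221 ± 12.2, 134 ± 0.929 and 79.2 ± 9.08 CPM per kb. In both orders the gap between neighbours was larger than their SDs. The SDs of cey-2 in both groups, and of cey-3 and cey-4 in the control, were smaller than the counting error of a single library. These SDs understate the error. Among the 15307 protein-coding genes tested, ranked by level per length from the highest, cey-2 moved from rank 124 in the control to 682 upon depletion and cey-3 from 222 to 1077. In the same ranking cey-1 moved from 401 to 436 and cey-4 from 277 to 337.

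The family was also compared as a whole, in amount and in makeup. Its summed level was 2185 and 2178 CPM per kb in control libraries, against 789 and 728 CPM per kb after depletion. The share of all gene counts that fell on the 4 genes went from 0.239% and 0.238% to 0.0891% and 0.0884%. The makeup of these counts also shifted. Protein-coding genes held 92.6% of them in both control libraries, against 84.7% and 87.7% in the depletion libraries. The germline members made up 72.5% and 72.8% of the summed level in the control, with cey-2 alone at 51.5% and 51.7%. Upon depletion they made up 28.0% and 28.4%, and the largest member was cey-4 at 42.9% and 42.4%. Replicates of a condition differed by less than 1 percentage point in the germline share.

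**Figure D2:**
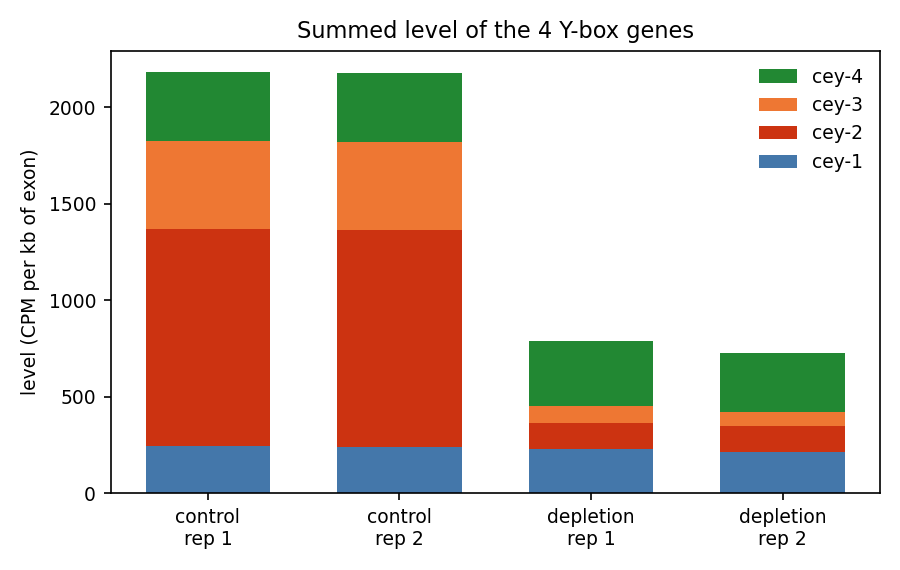
Level of the 4 Y-box genes in each library, in CPM per kb of exon, stacked by gene. The total is 2185 and 2178 for the control, 789 and 728 for the depletion, and the cey-2 and cey-3 segments shrink while those of cey-1 and cey-4 stay near the same height.

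A ratio of genes within a library does not depend on how libraries are scaled to each other. The log2 ratio of the germline members (cey-2 and cey-3 summed) to the broad members (cey-1 and cey-4 summed) was 1.40 and 1.42 in the control and -1.36 and -1.34 upon depletion. The difference between the groups was -2.76, or 6.76-fold, and the SDs within the groups were 0.014 and 0.020. With 2 libraries against 2, an exact two-sided permutation test cannot give a p below 0.333, and it gave that value. The 6 pairs of genes were compared in the same way, each with p = 0.333 by the exact test and 0.333 after adjustment over the 6 pairs. The log2 ratio of cey-1 to cey-4 was -0.57 and -0.58 in the control and -0.56 and -0.54 upon depletion, a difference of 0.026. The log2 ratio of cey-2 to cey-3 was 1.30 in both control libraries and 0.66 and 0.88 upon depletion, a 1.44-fold lower ratio. It differed by 0.53 between the groups and its SD in the depletion was 0.16. On the log2 scale the ratio of cey-2 to cey-4 differed by -2.92 between the groups and that of cey-3 to cey-4 by -2.39.

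The levels of the Y-box genes were then set beside marker genes of the tissues in a whole animal, none of which was at 0 in all libraries. All 21 germ cell markers, from meiosis, P granules and germline proliferation, were called lower, as were 32.1% of all genes tested. Their median log2 fold change was -1.38, against 0.16 over all genes tested. The markers ranged from -2.28 for gld-1, a translational repressor, to -0.54 for glh-1, a P granule helicase. All 15 oocyte markers were called lower, with a median of -2.43, from -2.68 for pos-1 to -1.51 for mbk-2. The decrease of cey-2 was larger than that of each of these 36 markers. The decrease of cey-3 was larger than that of all 21 germ cell markers and of 11 of the 15 oocyte markers.

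Somatic markers lay on the other side. The summed level of the 23 muscle, intestine, hypodermis and neuron markers was higher, going from 11971 and 11875 CPM in control libraries to 18744 and 19069 CPM after depletion. Over the same libraries the summed germ cell markers went from 2982 and 2976 to 1021 and 1199 CPM, and the summed oocyte markers from 10976 and 10970 to 1848 and 2265 CPM. Of the somatic markers 14 were called higher and 0 lower, beside 30.9% and 32.1% of all genes tested. Their medians were 0.68 in muscle, 0.49 in intestine, 0.33 in hypodermis and 0.44 in neurons. At their ends stood col-19 at 0.95 and unc-119, a neuronal gene, at -0.50, which did not pass the test. The broad members lay between the groups of markers, above all 36 germ cell and oocyte markers, with cey-1 below 21 and cey-4 below 22 of the 23 somatic ones. Muscle genes carried most of the somatic sum, with unc-54 at 5448 CPM in the control. The part of these shifts in the values of the Y-box genes was not tested.

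For this reason the libraries were also scaled to each set of markers, and the Y-box genes were tested again by edgeR. The scalings to germ cell and to oocyte markers were chosen after the data were seen. In the control gld-1 held 26.6% of the germ cell sum and cbd-1 24.9% of the oocyte sum. The spread among the markers of a set does not enter the SE or the adjusted p. Relative to the germ cell markers, cey-2 was still lower, with a log2 fold change of -1.63 (SE 0.14, adjusted p = 1.9e-04), and so was cey-3, with -1.09 (SE 0.17, adjusted p = 0.0016). Relative to the oocyte markers, cey-2 was lower by a smaller amount, -0.64 (SE 0.16, adjusted p = 0.0087), and cey-3 was at -0.090 (SE 0.20, adjusted p = 0.67). Relative to somatic markers, cey-1 and cey-4 were called lower, at -0.78 (SE 0.11) and -0.81 (SE 0.12), each with adjusted p = 2.2e-04. Relative to germ cell markers they were called higher, at 1.32 and 1.30. The direction of cey-1 and cey-4 therefore depended on the scaling, and that of cey-2 was the same in all 6 scalings plotted. The estimate of cey-3 was also below 0 in all 6, but with oocyte markers it could not be told from 0.

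**Figure D3:**
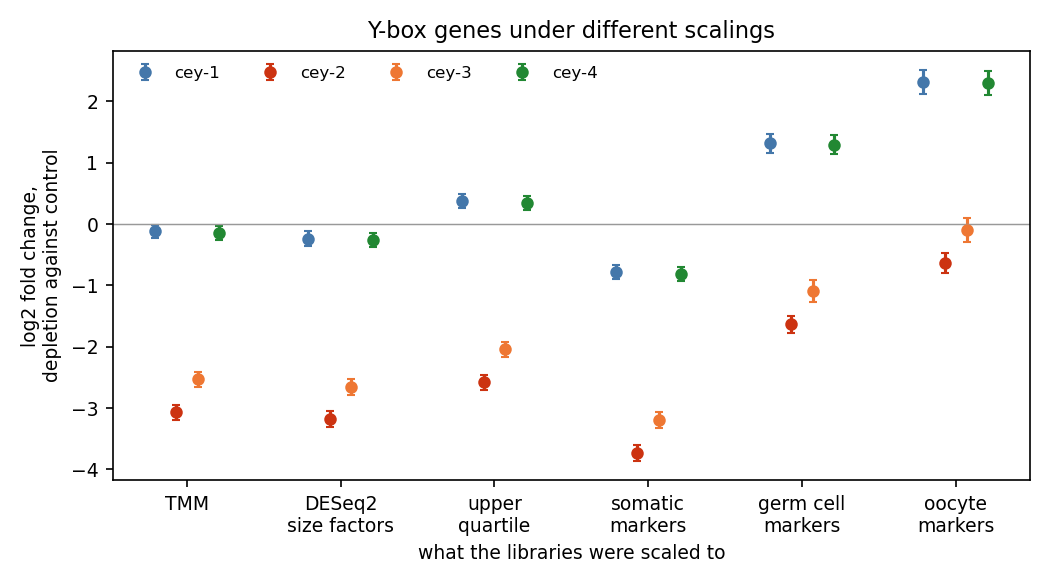
Log2 fold change of each Y-box gene upon ATTF-6 depletion (point) with its standard error (bar) when the libraries are scaled by TMM, DESeq2 size factors, upper quartiles, or the summed counts of somatic, germ cell or oocyte markers. The points of cey-2 and cey-3 stay below 0, down to -3.73 and -3.20 with somatic markers, while cey-1 and cey-4 lie on either side of 0. With oocyte markers cey-3 is at -0.090 and its bar (SE 0.20) crosses 0.

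Genes listed for mRNA storage and stress granules were mostly lower. Of 8 storage mRNP and stress granule genes 6 were called lower and 1 higher, beside 32.1% and 30.9% of all genes tested. Their median log2 fold change was -1.40, against 0.16 over all genes tested. The helicase gene cgh-1 went from 1754 and 1795 CPM to 262 and 305 CPM, a log2 fold change of -2.65 (SE 0.14, adjusted p = 2.5e-06). The genes ifet-1, which encodes the 4E-T homologue, and car-1 followed with -2.27 and -2.19. The G3BP homologue gtbp-1 was at -1.65 and tiar-1, of the TIA-1 family, at -1.14. The gene of the poly(A)-binding protein PAB-1 had 1979 and 2037 CPM against 1669 and 1586 CPM, with a log2 fold change of -0.30 that did not pass the test (adjusted p = 0.059) but was called lower in 7 of 12 alternatives, among them DESeq2 at -0.44. Its paralog pab-2 was the gene called higher, at 0.30 (adjusted p = 0.044), and this call was lost with DESeq2 and turned to -0.37 after scaling to somatic markers.

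All 7 decapping and P body genes were called lower, as were 32.1% of all genes tested. Their median log2 fold change was -1.54, against 0.16 over all genes tested. They ranged from -1.80 for patr-1, a decapping activator, to -0.75 for xrn-1, the 5′ to 3′ exonuclease. The 7 poly(A) tail enzymes and cofactors found in the tables were all called lower as well, with a median of -1.41. They ranged from -2.50 for gld-3, a Bicaudal-C family protein that binds the poly(A) polymerase GLD-2, to -0.98 for gld-2 itself. The heterochronic gene lin-28, which encodes another cold-shock domain protein, went from 35.5 and 36.3 CPM to 18.1 and 18.4 CPM. This was a log2 fold change of -0.98 (SE 0.11, adjusted p = 9.8e-05). The decrease of cey-2 was larger than that of each gene on these lists and of lin-28, and that of cey-3 was larger than each except cgh-1. Germ cell and oocyte markers fell in the same libraries, and their part in the values of these genes was not tested.

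Translation factors were nearer to cey-1 and cey-4. Of 11 genes, 8 were called lower and 2 higher, beside 32.1% and 30.9% of all genes tested. Their median log2 fold change was -0.61, and the number lower was 4 with upper-quartile scaling. The eIF3 subunit gene eif-3.C was the lowest at -1.22. The eIF5A genes went in opposite directions, with iff-1, the germline form, at -1.06 (adjusted p = 1.3e-04) and iff-2, the somatic form, at 0.82 (adjusted p = 9.6e-04). After scaling to somatic markers iff-2 was at 0.16 and no longer called.

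**Figure D4:**
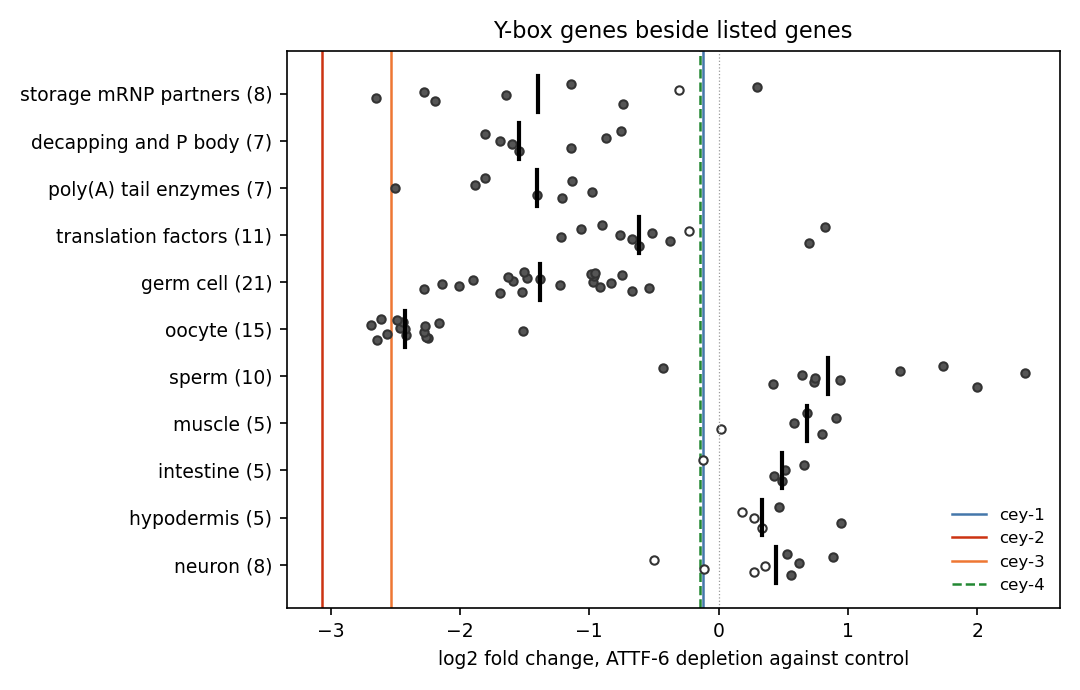
Log2 fold change upon ATTF-6 depletion for each gene of the lists drawn, which leave out lin-28 and the early embryo and gonad sheath markers (points, filled where the adjusted p was under 0.05, with the number of genes tested in parentheses), the median of each list (thick bars), and the Y-box genes (vertical lines). The line of cey-2 at -3.07 lies left of every point drawn, that of cey-3 at -2.53 among the oocyte markers, and those of cey-1 and cey-4 between the germline and the somatic lists.

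For each member the 3 protein-coding genes of most similar pattern were found among genes of like abundance, within 2-fold in mean CPM, by the distance between mean-centred log2 CPM over the 4 libraries. The nearest to cey-2 among 351 candidates was cgh-1, at a distance of 0.45, followed by spn-4, an oocyte marker, at 0.50 and clec-87, a C-type lectin gene, at 0.61. All 3 had smaller decreases than cey-2. The nearest to cey-3 among 886 candidates was the histone H2A gene his-61, at 0.20. It was followed by the polo-like kinase gene plk-3 at 0.24 and the replication licensing gene mcm-7 at 0.28. The counts of his-61, spn-4 and clec-87 were fractional in some libraries, since reads with several alignments were divided. Which genes shared these reads was not looked up. The broad members were close to each other. Among 716 candidates cey-4 was the second nearest to cey-1, after rab-1, a small GTPase gene, and among 564 candidates cey-1 was the nearest to cey-4, at a distance of 0.030. The TCA cycle gene fum-1 was the third nearest to both. With 4 libraries in 2 groups, a small distance says little more than that the fold changes and the depletion replicates were alike.

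**Figure D5:**
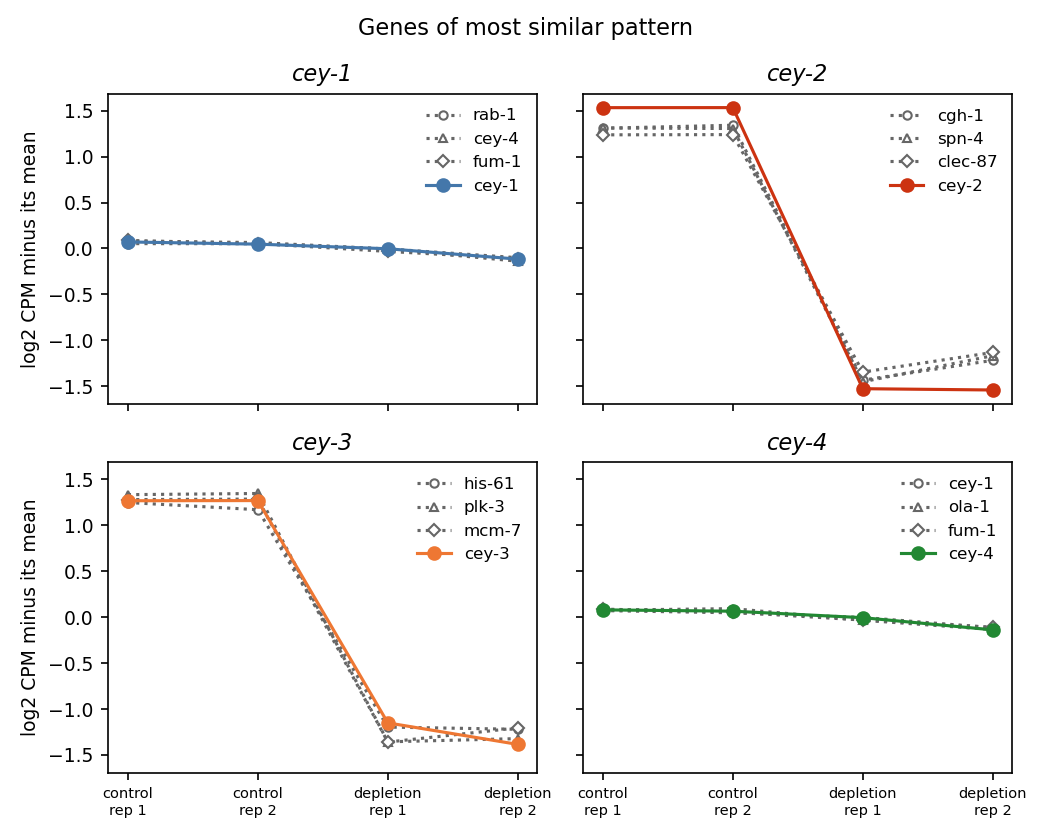
Log2 CPM minus its mean over the 4 libraries for each Y-box gene (coloured line) and its 3 most similar genes (grey dotted lines), by library. The germline members and their most similar genes drop between the control and depletion libraries, and the broad members and theirs stay within a narrow band around 0.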

How the data were processed

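The authors trimmed paired reads with TrimGalore, aligned them to the WormBase WS279 genome with STAR allowing up to 10 alignments, removed orphan mates and counted pairs per gene by strand with featureCounts, dividing multi-mapped reads. The authors deposited these expected counts without normalization, in 1 table per library, together with 181 transposon rows from Salmon that were not used here. Replicate numbers follow the sample labels, and the study's own count table gives the control libraries in the opposite order. That order would exchange the fits without control replicate 1 and without control replicate 2. It would also change the pairs in the replicate block and turn the sign of the correlation between same-numbered libraries. Tool versions are not given in the sources used here. The labels call the libraries small RNA, while the protocol and the counted genes are those of mRNA-seq.

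After rounding to whole numbers, counts were fitted by edgeR 4.0.16 under R 4.3.3. Genes passing filterByExpr (minimum count 10, minimum total 15) were normalized by TMM (factors 0.949 to 1.022) and tested by the two-sided quasi-likelihood F-test, with p-values adjusted by the Benjamini-Hochberg method over all 16591 genes and a threshold of 0.05. Every adjusted p is from this test unless DESeq2 (1.42.0) is named. The standard error is the log2 fold change divided by the square root of F. P-values rest on the spread between 2 replicates per group, which the labels do not tie to separate cultures. CPM used TMM-scaled library sizes, and counting errors are Poisson. Coordinates, exon lengths and protein lengths came from Ensembl release 115, which held 46924 of the 46934 identifiers.

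The members and lists were chosen with earlier results of these data known. The named genes are the members, attf-6, genes of the mRNP, decapping, poly(A) and translation lists, the ends of the marker lists, and the 3 genes nearest to each member. Overlapping and neighbouring genes of the loci and unc-54 were named after their values were seen. Of the listed symbols, ntl-1 and trp-3 were not matched. Lists are described by counts and medians, with no set test. Alternatives were DESeq2, 4 other scalings, other filters, each library left out, and a replicate block, with germ cell and oocyte scalings and the counts per list added after the data were seen.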

Additional observations from a re-analysis of the deposited data

How the results depend on the processing

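The calls of cey-2 and cey-3 were the same under the 12 alternatives other than the germ cell and oocyte scalings, with log2 fold changes between -3.73 and -2.58 for cey-2 and between -3.20 and -2.04 for cey-3. The germline to broad log2 ratio stayed between -2.77 and -2.74. The calls of cey-1 and cey-4 were not the same throughout, and their direction moved with the scaling. Upper-quartile scaling, which moved the median of all genes by 0.49, put cey-1 at 0.37 and cey-4 at 0.35. Both were then called higher by edgeR (adjusted p = 0.016 and 0.024). The same scaling put attf-6 at -0.077, and pab-1, eef-2 and eif-3.I at 0.19, 0.11 and 0.26. Scaling to somatic markers, which moved the median by -0.66, put cey-1 at -0.78, cey-4 at -0.81 and pab-2 at -0.37. DESeq2, with a median shift of -0.13, put cey-4 at -0.28. Scaling to germ cell markers gave 1.32 for cey-1 and 1.30 for cey-4, and scaling to oocyte markers gave 2.32 and 2.29, with cey-3 at -0.090. With each library left out, cey-1 lay between -0.18 and -0.11, cey-4 between -0.22 and -0.13 and attf-6 between -0.79 and -0.43. Genes called lay between 8242 and 12036, and those higher between 1474 with somatic markers and 8233 with upper quartiles. Of the lists, upper-quartile scaling left 18 germ cell markers and 4 translation factors called lower.

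The labels tie libraries of the 2 groups by a replicate number only, and the study's own count table numbers the control libraries in the opposite order. Deviations of same-numbered libraries from their group means had a correlation of -0.011. With 2 libraries per group this cannot show whether same-numbered libraries shared a culture or a preparation. With the replicate block the log2 fold changes of cey-1, cey-2, cey-3 and cey-4 were -0.12, -3.07, -2.54 and -0.14, and no call of these 4 genes changed.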

Other observations

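The surroundings of the loci were looked at after the values were seen. Between cey-3 and cey-2 lie 9 tested protein-coding genes, with a median log2 fold change of -1.16 against 0.16 over all genes tested. By edgeR's quasi-likelihood test 6 of the 9 were called lower, 1 higher and 2 were not called. Over all genes tested, 32.1% were called lower and 30.9% higher. Whether this stretch differs from others was not tested. The gene next to cey-3 on the side of cey-2 is rmh-1, which starts 264 nt away on the opposite strand and went from 50.7 and 53.7 CPM to 9.39 and 12.3 CPM, a log2 fold change of -2.26. On its other side pqn-52 was at 0.041 (adjusted p = 0.78). The gene xrep-4, on the side of cey-2 that faces cey-3, was at -1.16, and F46F11.7, 109 nt beyond cey-2 on the same strand, was at -0.40 (adjusted p = 0.30) with at most 4.40 CPM in a library. Of the nearest tested genes beside cey-1 and cey-4, nlp-18 next to cey-1 was called higher, at 0.48 (adjusted p = 0.046). The rest were not called. So few genes, beside a share of 32.1% called lower over all genes tested, allow no contrast between the loci.

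Markers of sperm and of early embryos were looked at as well. Of 10 sperm markers 9 were called higher and spe-44 lower, beside 30.9% and 32.1% of all genes tested. Their median log2 fold change was 0.84. For spe-38 the control libraries, at 12 and 10, lay near the minimum count of 10 set by the filter. A gene at that level passes more readily if it rises, so the higher call of spe-38 carries little weight. The 9 early embryo markers had a summed level of 7.28 and 8.47 CPM in control libraries, against 0.706 and 0.467 CPM after depletion. Only 4 of them passed the filter on low counts, each through the control libraries alone, so that their direction was largely fixed by the filter and no count of calls is given. The part of embryos in the values of cey-2 and cey-3 was not tested. The gonad sheath markers ceh-18 and lim-7 were at 0.45 and 0.36, and 1 of the 2 was called higher.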
